A study of Mus musculus with 9 samples.

Results

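The 10 genes described here encode nuclear receptors and coactivators that set how much fat and oxygen the heart can use: Ppargc1a and Ppargc1b, the PGC-1 coactivators; Ppara, Ppard and Pparg, the peroxisome proliferator-activated receptors (PPARs); Esrra, Esrrb and Esrrg, the estrogen-related receptors; and Rxra and Rxrg, retinoid X receptors. They were taken by gene symbol from a count table of 55401 rows (55291 distinct symbols), and each had 1 row. RNA sequencing of mouse heart RNA covered 3 groups of 3 libraries. KO-TAC hearts came from c-Myc flox/flox;Tcf21 iCre mice, in which tamoxifen activates a MerCreMer recombinase that deletes c-Myc in cells using the Tcf21 promoter, chiefly cardiac fibroblasts, and which underwent transverse aortic constriction (TAC), an operation that narrows the aorta and loads the left ventricle. TAC hearts came from wild-type mice with the same operation, and both loaded groups are titled 12 weeks. Control hearts, the sham arm of the design, were wild type. The operated mice were males 8 to 12 weeks old, and tamoxifen at 45 mg/kg on 5 days is described for the knockout line. The labels do not say whether wild-type mice received tamoxifen, and no Cre control or sham-operated knockout was analysed here, so effects of tamoxifen or Cre cannot be told apart from those of c-Myc loss.

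PPARs pair with retinoid X receptors on DNA and, when bound by lipids, switch on genes of fatty acid uptake, storage and oxidation. Estrogen-related receptors act without a known natural hormone on genes of the respiratory chain, the tricarboxylic acid cycle and fat oxidation. PGC-1 coactivators bind both kinds of receptor and raise mitochondrial gene expression when energy demand rises, and lower activity of this system is a known feature of failing heart muscle.

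Library totals ran from 59702513 to 109162107 counts, and the members had 51 to 17013 counts in a heart; mitochondrial genes took 23.8% to 38.5% of the counts. Levels are CPM, counts scaled to library size with TMM factors. Differences are log2 values from edgeR's quasi-likelihood test fitted on all 9 libraries, and a gene passed with a Benjamini-Hochberg adjusted p under 0.05 among 19051 genes; all 10 members were tested. Myc, the targeted gene, had 4.22, 1.87 and 4.75 CPM in KO-TAC replicates 1, 2 and 3, 8.93, 6.22 and 14.2 CPM in TAC replicates 1, 2 and 3, and 2.15, 2.47 and 1.55 CPM in control replicates 1, 2 and 3. Every KO-TAC heart lay below every TAC heart, the direction the labels give, beside 4.8% of genes. The difference did not pass (log2 -1.44, SE 0.41, edgeR adjusted p = 0.555). KO-TAC replicates 1 and 3 lay above every control heart. All 12 cardiomyocyte markers had counts in all 9 hearts. Their mean log2 CPM differed from the control mean by -0.62, -0.17 and -0.13 in KO-TAC replicates 1, 2 and 3 and by -0.75, 0.14 and -2.69 in TAC replicates 1, 2 and 3, so TAC replicates 1 and 3 stood apart from TAC replicate 2. In heart tissue, fewer cells of a type and less RNA per cell cannot be told apart.

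The promoters of Ppargc1a and Ppara are shown. Ppargc1a was the member with the widest range in CPM. Ppara was the member farthest below the control mean on the log2 scale in every KO-TAC heart. A link between promoter letters and transcript levels was not tested. The promoters are RefSeq windows of build GRCm38.p6, from 250 bases before the start to 50 after it, on the strand of the gene. Capitals mark TGACG or its reverse complement, the core of the cyclic AMP response element through which CREB acts on Ppargc1a.
Ppargc1a, chr5:51567676-51567975, minus strand: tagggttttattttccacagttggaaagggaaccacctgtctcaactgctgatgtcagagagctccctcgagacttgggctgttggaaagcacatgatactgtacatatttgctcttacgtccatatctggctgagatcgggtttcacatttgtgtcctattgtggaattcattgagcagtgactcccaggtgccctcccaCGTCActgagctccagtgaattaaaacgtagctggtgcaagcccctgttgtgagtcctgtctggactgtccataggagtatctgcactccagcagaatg
Ppara, chr15:85735526-85735825, plus strand: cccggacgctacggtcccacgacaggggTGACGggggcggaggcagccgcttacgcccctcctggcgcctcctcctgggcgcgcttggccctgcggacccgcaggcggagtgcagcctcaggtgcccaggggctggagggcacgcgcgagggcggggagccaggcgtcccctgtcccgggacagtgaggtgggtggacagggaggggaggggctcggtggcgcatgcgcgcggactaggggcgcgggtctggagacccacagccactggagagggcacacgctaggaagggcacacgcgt
The core began 49 bases before the RefSeq start of Ppargc1a, on the opposite strand, and 222 bases before the RefSeq start of Ppara. The Ppara window, from 85735526 on, lies inside the gene as annotated by GENCODE M21, which begins at 85734983. RefSeq windows matched 9 of the 10 members, 17 windows in all. With both strands searched, TGACG was in 4 of the 17 (1 each of Ppargc1a, Ppara, Ppard and Esrrb), or 23.5%, and in 20.8% of all 32851 windows. AAGGTCA, the core of the estrogen-related receptor element, was in 2 of the 17 (1 each of Rxra and Rxrg), or 11.8%, and in 4.72% of all windows. Those windows, from 27709042 and 167618015 on, lie inside the genes as annotated by GENCODE M21, which begin at 27676440 and 167598384. The windows of Rxra and Rxrg nearer those starts had no match. The longer elements TNAAGGTCA (estrogen-related receptors), TGACGTCA (CREB) and CACGTG (the E-box bound by Myc), and the direct repeat bound by PPAR and RXR, were in 0 of the 17. All windows held them in 1.28%, 1.79%, 7.15% and 0.040% of cases. TGACG lies inside TGACGTCA and AAGGTCA inside TNAAGGTCA; TGACG, TGACGTCA and AAGGTCA were added after the others had been searched.

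Per kilobase of exon the order of the 10 genes was looser in loaded than in control hearts. In KO-TAC hearts it ran from Esrra at 24.5 ± 3.7 CPM per kb (SD, n = 3) to Ppara at 2.6 ± 1.65, and in TAC hearts from Esrra at 19.1 ± 9.23 to Ppargc1b at 1.57 ± 1.1 CPM per kb. In both, each gene in the order overlapped the next. In control hearts Esrra was at 25.3 ± 1.78 CPM per kb, followed by Rxrg at 18.7 ± 0.281, Ppargc1a at 13.7 ± 0.634 and Rxra at 11.7 ± 0.927, with no overlap between neighbours. Below them, Esrrg (7.84 ± 0.308 CPM per kb) overlapped Ppara (7.69 ± 1.35), Esrrb (5.11 ± 0.324) overlapped Ppargc1b (4.6 ± 0.401), and Ppard (3.72 ± 0.12) overlapped Pparg (2.85 ± 0.836). Exon lengths are unions over the transcripts of GENCODE M21 (GRCm38), so the order between genes depends on them.

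**Figure D1:**
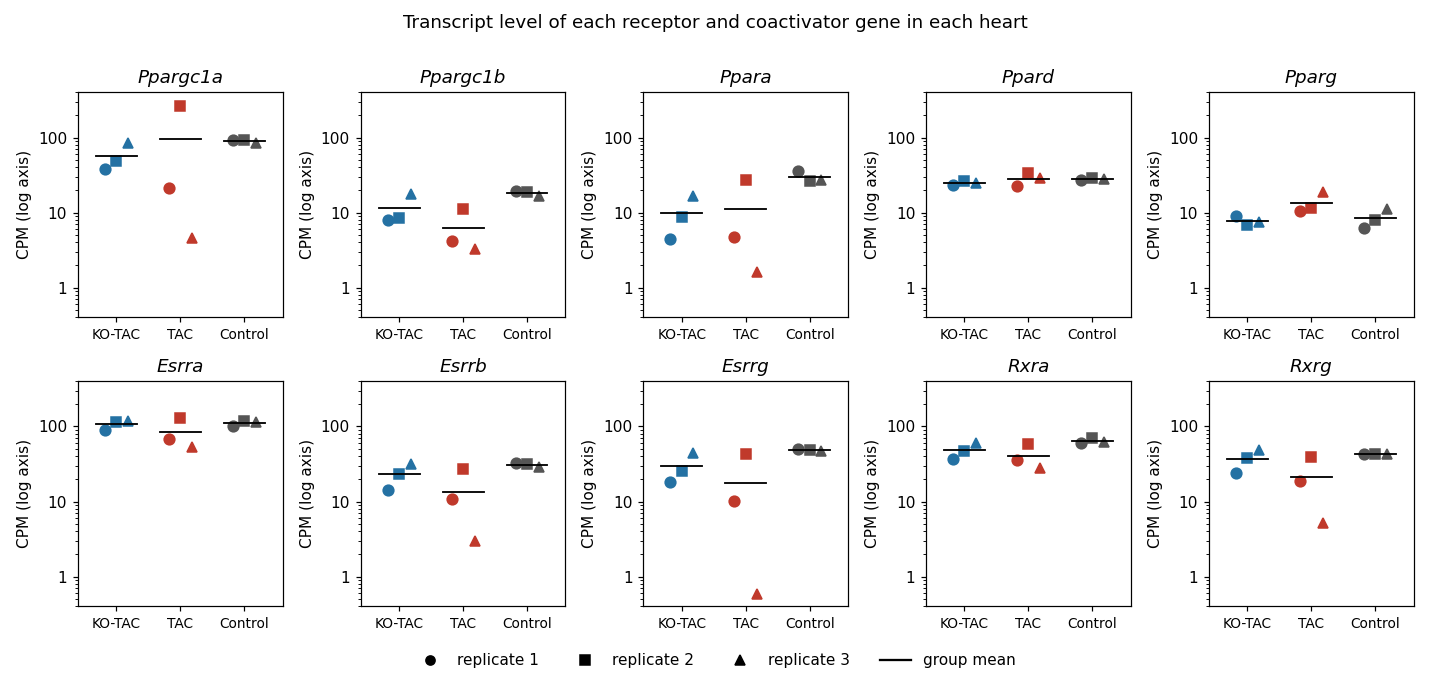
CPM of each of the 10 genes in each heart on a shared log axis, by group, with marker shapes for replicates 1 to 3 and a line at the group mean. TAC hearts run from 4.54 to 265 CPM for Ppargc1a and from 0.59 to 42.5 CPM for Esrrg, whereas control hearts lie close together.

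Ppargc1a encodes PGC-1 alpha, the coactivator that responds to exercise and fasting (chromosome 5, 51454250 to 51567726, minus strand). It had 38.1, 49.0 and 83.5 CPM in KO-TAC replicates 1, 2 and 3, 20.9, 265 and 4.54 CPM in TAC replicates 1, 2 and 3, and 93.1, 92.1 and 85.4 CPM in control replicates 1, 2 and 3. The KO-TAC hearts were all below the control hearts and inside the range of the TAC hearts. TAC replicates 1 and 3 lay below every control heart and TAC replicate 2 above every control heart, a 58.5-fold span in TAC and a 1.09-fold span in control hearts. The log2 difference of TAC from control was 0.10 (SE 1.06, 95% interval -2.27 to 2.48; edgeR adjusted p = 0.962). It was -2.83, 7.1-fold lower, without TAC replicate 2 (edgeR adjusted p = 0.0146). It was 0.66 without TAC replicate 3 (edgeR adjusted p = 0.719) and 0.58 without TAC replicate 1 (adjusted p = 0.789). The adjusted p ran from 0.00537 to 1 over 19 alternatives. Neither KO-TAC difference passed (KO-TAC minus TAC -0.77, SE 1.06, edgeR adjusted p = 0.823; KO-TAC minus control -0.67, SE 1.06, adjusted p = 0.926). KO-TAC minus TAC was 2.16 without TAC replicate 2 and -1.33 without TAC replicate 3.

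Ppargc1b encodes PGC-1 beta, a coactivator with overlapping targets (chromosome 18, 61298136 to 61400431, minus strand). It had 7.92, 8.5 and 17.6 CPM in KO-TAC replicates 1, 2 and 3, 4.16, 11.3 and 3.29 CPM in TAC replicates 1, 2 and 3, and 19.6, 19.0 and 16.6 CPM in control replicates 1, 2 and 3. All TAC hearts, replicate 2 included, were below all control hearts, and KO-TAC hearts overlapped both groups. TAC minus control was -1.56 on the log2 scale (SE 0.47, 2.94-fold lower), with the smallest p of the 10 members in this comparison (unadjusted p = 0.00889 by edgeR, rank 1142 of 19051 genes). It did not pass after adjustment by edgeR (adjusted p = 0.148). Nor did it by edgeR without TAC replicate 3 (-1.26, adjusted p = 0.287) or TAC replicate 1 (-1.34, adjusted p = 0.275). It passed by DESeq2 (-1.55, adjusted p = 0.0303), by limma-voom with quality weights (-2.04, adjusted p = 0.00116) and by edgeR without TAC replicate 2 (-2.31, adjusted p = 0.0101), within a range of 0.00116 to 0.399 over 19 alternatives. Neither KO-TAC difference of Ppargc1b passed (KO-TAC minus TAC 0.86, SE 0.47, edgeR adjusted p = 0.688; KO-TAC minus control -0.70, SE 0.47, adjusted p = 0.862). KO-TAC minus TAC ran from 0.40 to 1.61 with 1 library left out, lowest without KO-TAC replicate 3 and highest without TAC replicate 2. The per-kilobase ratio of Ppargc1a to Ppargc1b, which library scaling does not touch, was 2.87 to 3.49 in KO-TAC hearts, 3.05, 14.2 and 0.836 in TAC replicates 1, 2 and 3, against a range of 2.88 to 3.12 in control hearts.

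Ppara, the PPAR that drives fatty acid oxidation genes in heart muscle (chromosome 15, 85734983 to 85802819, plus strand), had 4.38, 8.74 and 16.9 CPM in KO-TAC replicates 1, 2 and 3, 4.71, 27.5 and 1.63 CPM in TAC replicates 1, 2 and 3, and 35.5, 26.1 and 27.0 CPM in control replicates 1, 2 and 3. Every KO-TAC heart and TAC replicates 1 and 3 lay below every control heart, while TAC replicate 2 lay among the controls. KO-TAC minus control was -1.56 (SE 0.86, 2.96-fold lower), the largest difference of the 10 members in that comparison, and did not pass (edgeR adjusted p = 0.853). It passed by limma-voom with quality weights (-1.68, adjusted p = 0.0231; 0.0231 to 1 over 19 alternatives). TAC minus control was -1.39 (SE 0.85, 2.62-fold lower; edgeR adjusted p = 0.352), and -3.23, 9.36-fold lower, without TAC replicate 2 (edgeR adjusted p = 0.0122; 0.00154 to 0.591 over 19 alternatives), and -0.88 without TAC replicate 3. KO-TAC minus TAC was -0.17 (SE 0.84; edgeR adjusted p = 0.954), with 1.66 without TAC replicate 2 and -0.68 without TAC replicate 3.

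Ppard, a broadly expressed PPAR that also acts on fat oxidation (chromosome 17, 28232700 to 28301474, plus strand), had 23.0, 26.1 and 24.4 CPM in KO-TAC replicates 1, 2 and 3, 22.2, 33.4 and 29.1 CPM in TAC replicates 1, 2 and 3, and 27.2, 29.0 and 27.7 CPM in control replicates 1, 2 and 3. KO-TAC hearts lay just under the controls, and TAC hearts lay on both sides of them. The log2 differences were -0.20 for KO-TAC minus TAC (95% interval -0.61 to 0.20), 0.014 for TAC minus control (-0.39 to 0.42) and -0.19 for KO-TAC minus control (-0.59 to 0.21), with edgeR adjusted p of 0.762, 0.968 and 0.887.

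Pparg, best known as the receptor of fat cell formation and also used by endothelium and macrophages (chromosome 6, 115360951 to 115490399, plus strand), had 8.91, 6.82 and 7.59 CPM in KO-TAC replicates 1, 2 and 3, 10.4, 11.3 and 18.9 CPM in TAC replicates 1, 2 and 3, and 6.26, 7.92 and 11.1 CPM in control replicates 1, 2 and 3. All KO-TAC values were under the lowest TAC value, and the TAC and control ranges overlapped. KO-TAC minus TAC was -0.80 (SE 0.29, 1.74-fold lower) and TAC minus control 0.69 (SE 0.29, 1.61-fold higher), and neither passed (edgeR adjusted p = 0.65 and 0.223). With 1 library left out they ran from -0.96 to -0.47 and from 0.35 to 0.93, smallest without TAC replicate 3. Of 10 adipocyte markers Lep and Ucp1 had no count in any heart, and 2 to 5 were at 0 in KO-TAC, 2 to 4 in TAC and 3 to 6 in control hearts. Adipoq had 0 to 0.0562 CPM in KO-TAC, 0.0463 to 0.296 CPM in TAC and 0 to 0.23 CPM in control hearts. Cfd had 0.193 to 1.52, 0.0463 to 1.45 and 0.103 to 0.395 CPM, Retn 0 to 0.228, 0 to 0.109 and 0 CPM, Plin1 0 to 0.235, 0 to 0.266 and 0 to 0.291 CPM, and Cidec 0 to 0.243, 0.0579 to 0.757 and 0 to 0.215 CPM in KO-TAC, TAC and control hearts. Lipe had 24.2 to 40.8 CPM in KO-TAC, 37.7 to 61.2 CPM in TAC and 33.2 to 66.0 CPM in control hearts, and the other 2 markers, Fabp4 and Lpl, are also expressed by capillaries and heart muscle. The median of the 7 adipocyte markers that were tested differed from the control mean by 0.58, -0.50 and -0.26 in KO-TAC replicates 1, 2 and 3, by 1.18, 0.29 and -0.48 in TAC replicates 1, 2 and 3, and by -1.03, 0.34 and 0.62 in control replicates 1, 2 and 3. The median of the 10 endothelial markers differed from the control mean by 0.29, 0.076 and 0.19 in KO-TAC replicates 1, 2 and 3 and by 0.87, -0.062 and 1.146 in TAC replicates 1, 2 and 3. They summed to 1186 to 1252 CPM in KO-TAC, 1235 to 2670 CPM in TAC and 1046 to 1152 CPM in control hearts, and the 10 macrophage markers to 261 to 440.2, 241 to 513 and 259 to 278 CPM in KO-TAC, TAC and control hearts. No endothelial or macrophage marker was at 0, and the part of these 3 lists in the Pparg values was not tested.

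The balance between PPARs was also taken within each heart, where library scaling has no part. For this and the other ratios, how many other gene pairs separate as fully was not examined. The part of cell makeup in the ratios was not tested. Ppara over Ppard, per kilobase, was 0.373, 0.655 and 1.35 in KO-TAC replicates 1, 2 and 3 and 0.414, 1.61 and 0.11 in TAC replicates 1, 2 and 3, all under the 1.76 to 2.55 of control hearts. Ppara over Pparg was 0.378, 0.987 and 1.71 in KO-TAC replicates 1, 2 and 3 and 0.348, 1.87 and 0.0663 in TAC replicates 1, 2 and 3, against 1.87 to 4.37 in control hearts, the lowest of which TAC replicate 2 equalled.

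**Figure D2:**
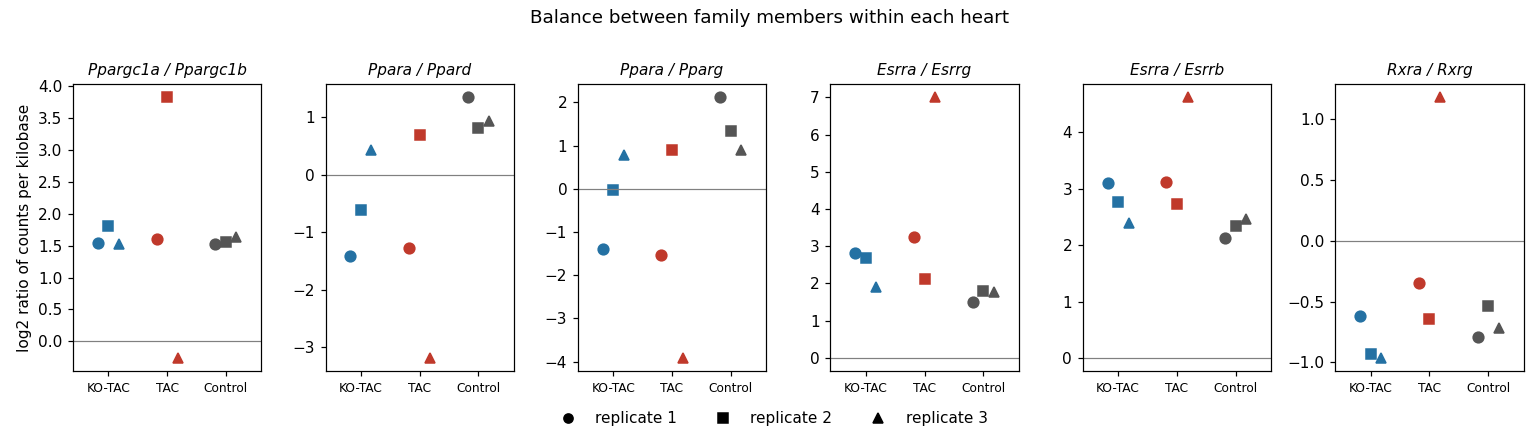
Log2 ratio of counts per kilobase between members of a family in each heart, by group, with marker shapes for replicates 1 to 3 and a line at equal levels. Ppara over Ppard lies below the control range in all loaded hearts, and Esrra over Esrrg reaches 7.01 (log2) in TAC replicate 3. How many other gene pairs separate as fully was not examined.

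Esrra, which acts on oxidative phosphorylation genes with PGC-1 alpha (chromosome 19, 6910977 to 6921813, minus strand), had 89.0, 116 and 118 CPM in KO-TAC replicates 1, 2 and 3, 68.0, 129.9 and 53.7 CPM in TAC replicates 1, 2 and 3, and 102, 117 and 114 CPM in control replicates 1, 2 and 3. TAC replicates 1 and 3 were the lowest of the 9 hearts and TAC replicate 2 the highest. The log2 differences were 0.36 (SE 0.32) for KO-TAC minus TAC, -0.41 (SE 0.32) for TAC minus control and -0.047 (95% interval -0.76 to 0.67) for KO-TAC minus control (edgeR adjusted p = 0.762, 0.454 and 0.987). Without TAC replicate 2 TAC minus control was -0.88 (edgeR adjusted p = 0.0206; 0.00682 to 0.796 over 19 alternatives), and -0.18 without TAC replicate 3. The KO-TAC minus TAC difference was 0.83 without TAC replicate 2 and 0.13 without TAC replicate 3. Esrra shares 73 exon bases, 1.66% of its exon length, with Trmt112 on the opposite strand and 91 with Mir6990 on its own strand, and without a stated strand setting reads there cannot be assigned.

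Esrrg, which acts on oxidative metabolism in the heart from birth on (chromosome 1, 187608791 to 188214885, plus strand), had 17.99, 25.3 and 44.7 CPM in KO-TAC replicates 1, 2 and 3, 10.1, 42.5 and 0.59 CPM in TAC replicates 1, 2 and 3, and 50.9, 48.1 and 47.2 CPM in control replicates 1, 2 and 3. All 6 loaded hearts lay below all 3 controls, and TAC replicate 3, with 51 counts, was -6.31 log2 units from the control mean, the lowest value of any member. TAC minus control was -1.46 (SE 0.998, 2.75-fold lower; edgeR adjusted p = 0.397), and -3.20, 9.18-fold lower, without TAC replicate 2 (edgeR adjusted p = 0.035; 0.00242 to 0.616 over 19 alternatives). Without TAC replicate 3 it was -0.90 (edgeR adjusted p = 0.484), and without TAC replicate 1 -1.18 (adjusted p = 0.616). KO-TAC minus TAC was 0.73 (SE 0.98) and KO-TAC minus control -0.73 (SE 0.98), and neither passed (edgeR adjusted p = 0.82 and 0.912). With 1 library left out KO-TAC minus TAC ran from 0.17 to 2.46, lowest without TAC replicate 3 and highest without TAC replicate 2.

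Esrrb, best known from stem cells and the placenta (chromosome 12, 86361117 to 86521628, plus strand), had 14.3, 23.5 and 31.1 CPM in KO-TAC replicates 1, 2 and 3, 10.8, 27.0 and 2.997 CPM in TAC replicates 1, 2 and 3, and 32.2, 31.9 and 28.6 CPM in control replicates 1, 2 and 3. TAC hearts lay below all controls, and KO-TAC hearts overlapped both groups. The log2 differences were 0.76 (SE 0.61) for KO-TAC minus TAC, -1.19 (SE 0.61, 2.28-fold lower) for TAC minus control and -0.43 (SE 0.61) for KO-TAC minus control, and none passed (edgeR adjusted p = 0.745, 0.286 and 0.916). Without TAC replicate 2 TAC minus control was -2.17 (edgeR adjusted p = 0.0188). It was -0.72 without TAC replicate 3 (edgeR adjusted p = 0.446) and -1.05 without TAC replicate 1 (adjusted p = 0.486). The adjusted p ran from 0.00192 to 0.486 over 19 alternatives. The KO-TAC minus TAC difference was 1.74 without TAC replicate 2 and 0.29 without TAC replicate 3. Esrra over Esrrg, per kilobase, was 7, 6.46 and 3.75 in KO-TAC replicates 1, 2 and 3 and 9.56, 4.33 and 129 in TAC replicates 1, 2 and 3, all above the 2.85 to 3.45 of control hearts. Esrra over Esrrb was 5.24 to 8.57 in KO-TAC, 6.64 to 24.7 in TAC and 4.38 to 5.49 in control hearts.

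Rxra, the broadly expressed partner of the PPARs (chromosome 2, 27676440 to 27762957, plus strand), had 37.3, 46.6 and 59.6 CPM in KO-TAC replicates 1, 2 and 3, 35.6, 59.2 and 28.0 CPM in TAC replicates 1, 2 and 3, and 60.0, 69.5 and 61.6 CPM in control replicates 1, 2 and 3. All loaded hearts were below all controls, TAC replicate 2 and KO-TAC replicate 3 by under 1 CPM. TAC minus control was -0.64 (SE 0.29, 1.55-fold lower; edgeR adjusted p = 0.242), KO-TAC minus control -0.41 (SE 0.29; adjusted p = 0.862) and KO-TAC minus TAC 0.23 (SE 0.29; adjusted p = 0.811). Rxrg, a retinoid X receptor found in muscle and brain (chromosome 1, 167598384 to 167639623, plus strand), had 24.1, 37.5 and 48.9 CPM in KO-TAC replicates 1, 2 and 3, 19.0, 38.9 and 5.18 CPM in TAC replicates 1, 2 and 3, and 43.6, 42.3 and 42.7 CPM in control replicates 1, 2 and 3. TAC hearts lay below the control range and KO-TAC hearts on both sides of it. TAC minus control was -1.03 (SE 0.56, 2.04-fold lower; edgeR adjusted p = 0.309), KO-TAC minus control -0.22 (SE 0.56; adjusted p = 0.954) and KO-TAC minus TAC 0.81 (SE 0.56; adjusted p = 0.726). Rxra over Rxrg, per kilobase, was 0.513 to 0.65 in KO-TAC hearts, 0.789, 0.641 and 2.27 in TAC replicates 1, 2 and 3, against a range of 0.579 to 0.69 in control hearts. On this per-kilobase scale, but not in CPM, TAC replicate 3 was the 1 heart in which Rxra exceeded Rxrg. Without TAC replicate 2 the TAC minus control difference of Rxra was -1.01 (edgeR adjusted p = 0.0174; 0.0028 to 0.481 over 19 alternatives) and that of Rxrg -1.83 (adjusted p = 0.0285; 0.00319 to 0.49). Without TAC replicate 3 they were -0.44 and -0.58 (edgeR adjusted p = 0.481 and 0.474). Without TAC replicate 1 they were -0.55 and -0.96 (edgeR adjusted p = 0.433 and 0.49). KO-TAC minus TAC was 0.59 for Rxra and 1.61 for Rxrg without TAC replicate 2, and 0.022 and 0.36 without TAC replicate 3; for Rxra it also lay near 0 without KO-TAC replicate 3.

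**Figure D3:**
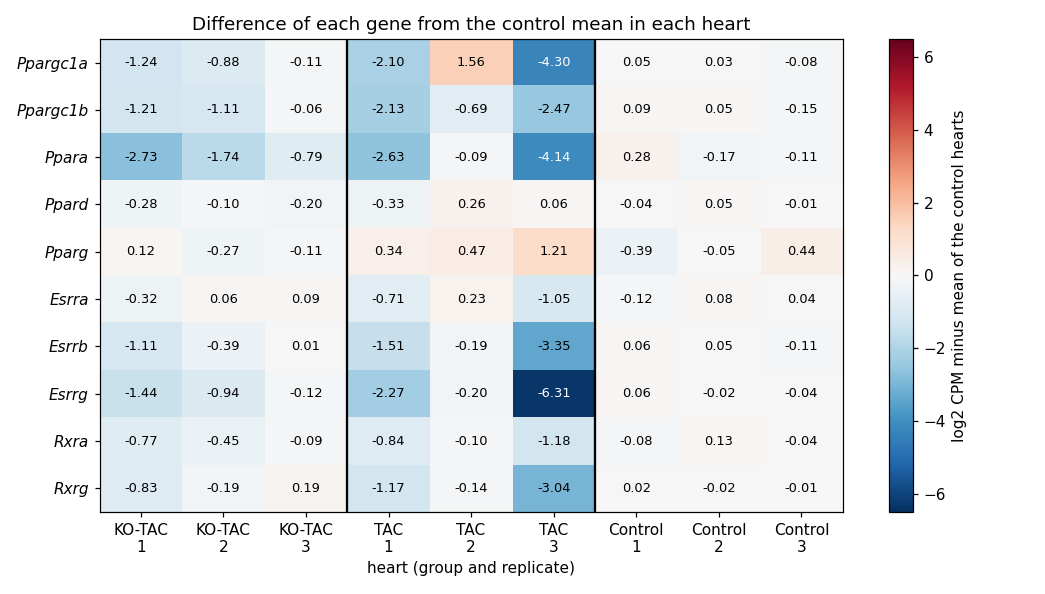
Log2 CPM of each gene minus the mean of the control hearts, in each of the 9 hearts; blue is lower and red higher. TAC replicate 3 is the bluest column (median -2.76), TAC replicate 2 is red for Ppargc1a (1.56), and Ppara lies farthest below the control mean in each KO-TAC heart.

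Heart by heart, the median of the 10 genes differed from the control mean by -0.97, -0.42 and -0.10 log2 units in KO-TAC replicates 1, 2 and 3 and by -1.34, -0.094 and -2.76 in TAC replicates 1, 2 and 3. Ppara lay farthest below the control mean in KO-TAC replicates 1, 2 and 3 (-2.73, -1.74 and -0.79) and in TAC replicate 1 (-2.63). On this scale Ppargc1b was lowest in TAC replicate 2 (-0.69) and Ppargc1a highest (1.56), so the PGC-1 coactivators lay at opposite ends. Pparg was above the control mean in all 3 TAC hearts (0.34, 0.47 and 1.21 in replicates 1, 2 and 3).

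TAC against control sets the loaded wild-type heart beside the unloaded one. In 5 members (Ppargc1b, Esrrb, Esrrg, Rxra and Rxrg) every TAC heart lay below every control heart, beside 14% of genes, and 0 lay wholly above, beside 14.1%. By edgeR 0 of 10 members passed, beside 0% of all genes; 2 members had an unadjusted p under 0.05, beside 21.3% of genes. These were Pparg, higher, beside 13.2% higher, and Ppargc1b, lower, beside 8.08% lower. The fit put 7 members lower and 3 higher (Pparg, Ppard and Ppargc1a, of which the last 2 changed sign without TAC replicate 2, and Ppard also without control replicate 1 or TAC replicate 3), with a median of -0.83 for the 10 and 0.026 for all genes. The median of the 10 was -2.001 without TAC replicate 2 and -0.51 without TAC replicate 3. DESeq2 called 1 member lower (Ppargc1b), beside 2.87% of genes lower and 5.68% higher. The limma-voom fit with quality weights called 8 members lower, all but Ppard and Pparg, beside 38% of genes in either direction, 19.8% lower and 18.2% higher. Without TAC replicate 2 edgeR called the same 8 members lower, beside 14% of genes lower and 13.5% higher. Without TAC replicate 3 it called 0 members, beside 0% lower and 0.0102% higher. Without TAC replicate 1 it also called 0 members, and 1 gene in all. By the median of the 10, TAC replicate 2 was the TAC heart nearest control (-0.094), so leaving it out favours a larger difference.

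KO-TAC against TAC sets loaded hearts with c-Myc deleted in Tcf21 cells beside loaded wild-type hearts. Pparg, 1 of 10 members, was lower in every KO-TAC than in every TAC heart, beside 4.8% of genes, and 0 were wholly higher, beside 5.17%. By edgeR 0 members passed, beside 0% of genes, and by DESeq2 0, beside 1.03%. At an unadjusted p under 0.05 there was 1 member (Pparg, lower), beside 4.51% lower and 7.45% in either direction. The fit put 6 members higher (Ppargc1b, the 3 estrogen-related receptors, Rxra and Rxrg) and 4 lower, of which Ppara and Ppargc1a changed sign without TAC replicate 2 and Ppard under limma-voom. The median of the 10 was 0.29 (0.010 for all genes), 1.61 without TAC replicate 2 and 0.076 without TAC replicate 3. The limma-voom fit with quality weights called Esrra (0.68), Esrrb (1.147) and Rxrg (1.03) higher, with adjusted p of 0.0491, 0.0492 and 0.0498, beside 3.3% of genes higher, 1.93% lower and 5.23% in either direction. The adjusted p of these 3 reached 1 in other alternatives. Without TAC replicate 2 edgeR called 0 members, beside 0.01% of genes higher, 0.0552% lower and 0.0653% in either direction, and without TAC replicate 3 it called 0, beside 0.0051%.

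KO-TAC against control sets the loaded knockout heart beside the unloaded wild-type heart, with the same 3 control hearts as above. Ppara, Ppard, Ppargc1a, Esrrg and Rxra lay wholly below control, 5 of 10 beside 13.6% of genes, and 0 wholly above, beside 12.9%. The fit put all 10 members lower, beside 46.2% of genes, with a median of -0.42 for the 10 and 0.038 for all genes. With 1 library left out the median of the 10 ran from -0.66 to -0.24, lowest without KO-TAC replicate 3 and nearest 0 without KO-TAC replicate 1. With library size alone Ppard (0.038), Pparg (0.13) and Esrra (0.16) were higher, in a fit whose median over all genes was 0.28. Without KO-TAC replicate 1 Esrra and Rxrg changed sign, and without control replicate 3 Pparg did. By edgeR 0 members passed, beside 0% of genes, and 0 had an unadjusted p under 0.05, beside 5.76%; DESeq2 called 0, beside 0.468%. The limma-voom fit with quality weights called Ppara (-1.68, adjusted p = 0.0231) and Ppargc1b (-0.87, adjusted p = 0.0444; 0.0444 to 1 over 19 alternatives) lower, beside 2.8% of genes lower and 5.2% in either direction.

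**Figure D4:**
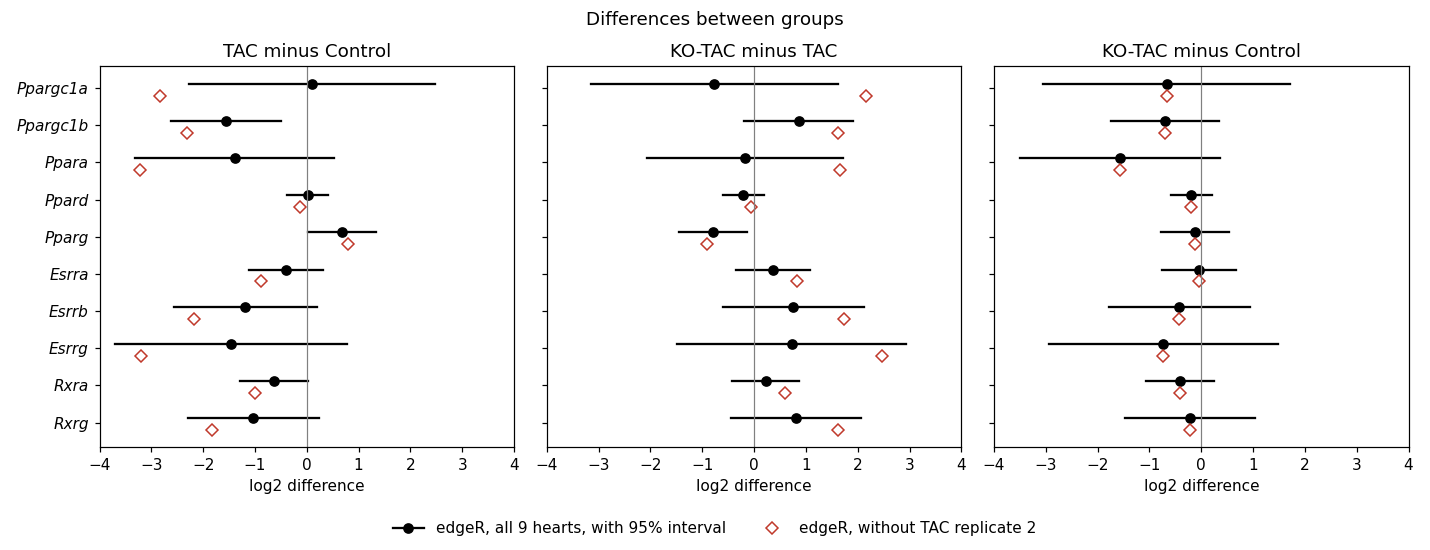
Log2 difference of each gene in the 3 comparisons by edgeR on all 9 hearts with its 95% interval (black), and the value without TAC replicate 2 (red diamonds). In TAC minus control the diamond of Ppargc1a lies at -2.83 and its black point at 0.10. Values without TAC replicate 1 or 3 are not drawn. In KO-TAC minus control each diamond stands right under its point. The TAC hearts still enter the intervals there, through the spread estimated from all 9 hearts.

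Cardiomyocyte markers also differed between these hearts. They summed to 49310, 71490 and 80190 CPM in KO-TAC replicates 1, 2 and 3. In TAC replicates 1, 2 and 3 they summed to 47040, 93780 and 15250 CPM, against 84780 to 86920 CPM in control hearts. In TAC replicate 3, where the markers were lowest, 8 members lay below the control mean and 2, Pparg and Ppard, above it. Member levels were also taken as log2 CPM minus the mean log2 CPM of the 12 markers in the same heart. On this scale Ppara was -9.41, -8.87 and -7.97 in KO-TAC replicates 1, 2 and 3 and -9.18, -7.53 and -8.76 in TAC replicates 1, 2 and 3, all under the -7.45 to -7.06 of control hearts. Esrrg was -8.09, -6.91 and -10.19 in TAC replicates 1, 2 and 3, against -6.59 to -6.54 in control hearts. Ppara, Esrrg, Esrrb and Rxrg lay below control in all TAC hearts, 4 of 10 beside 2.71% of genes. The markers were low in TAC replicates 1 and 3, so subtracting them raises genes that were not low there. On this scale 18.8% of genes lay wholly above control in TAC hearts. The share over all genes is therefore a weak yardstick for genes expressed in heart muscle, in each comparison on this scale. The scale depends on how the 12 markers are summarised, and overlap between groups was taken with their mean only. With their median the control levels of Esrrb, Esrrg and Rxrg were -7.129, -6.472 and -6.655, beside -7.225, -6.568 and -6.751 with the mean. Those of Ppard and Ppargc1a were -7.271 and -5.584, beside -7.367 and -5.679. Ppard lay above control in all TAC hearts (-7.25 to -4.62 against -7.45 to -7.30), 1 of 10 beside 18.8%. Between KO-TAC and control, Ppara was the 1 member wholly lower, beside 3.64%, and Esrra the 1 wholly higher (-5.16 to -5.08 against -5.54 to -5.28), beside 29.5%. Between KO-TAC and TAC, Rxrg was the 1 member wholly higher (-6.96 to -6.43 against -7.17 to -7.03), beside 1.14%, and 0 were wholly lower, beside 2.4%. The Rxrg ranges lay close together, and its level in TAC hearts was -6.944 with the marker median, beside -7.104 with the mean.

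Genes that these receptors act on were described from lists of 30 PPAR targets and 30 targets of estrogen-related receptors and PGC-1, all tested, and 0 of either list passed by edgeR in any comparison. In TAC against control 26 PPAR targets and 30 receptor and PGC-1 targets were fitted lower, beside 48.5% of genes, with medians of -0.99 and -0.77. These medians were -1.88 and -1.58 without TAC replicate 2, and -0.61 and -0.29 without TAC replicate 3. In KO-TAC against TAC 23 and 30 were fitted higher, beside 50.8% of genes, with medians of 0.45 and 0.46; without TAC replicate 3 these medians were -0.007 and -0.039, and they were 1.46 and 1.25 without TAC replicate 2. In KO-TAC against control 26 and 24 were fitted lower, beside 46.2% of genes, with medians of -0.57 and -0.29. With 1 library left out they ran from -0.91 to -0.31 and from -0.50 to -0.076, lowest without KO-TAC replicate 3 and nearest 0 without KO-TAC replicate 1. Lpl, which frees fatty acids from blood lipids, was at 4432 ± 448 CPM in KO-TAC, 3014 ± 2477 CPM in TAC and 5925 ± 134 CPM in control hearts (SD, n = 3 each). Fabp3, the fatty acid binding protein of heart muscle, was at 2367 ± 496, 1403 ± 1172 and 2191 ± 120.4 CPM in KO-TAC, TAC and control hearts, and Cd36, a fatty acid transporter, at 998 ± 400, 825 ± 443 and 1493 ± 59.5 CPM.

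Among the receptor and PGC-1 targets, Mb, which encodes myoglobin, was at 8684 ± 1342 CPM in KO-TAC, 6016 ± 4430 CPM in TAC and 7725 ± 367 CPM in control hearts. Atp5b, a subunit of ATP synthase, was at 3058 ± 1078, 2432 ± 2136 and 4199 ± 144 CPM in KO-TAC, TAC and control hearts, and Slc25a4, the ADP and ATP exchanger of mitochondria, at 3378 ± 327, 2258 ± 1693 and 3131 ± 102 CPM. The list summed to 23990, 37500 and 39390 CPM in KO-TAC replicates 1, 2 and 3 and to 23800, 44850 and 4616 CPM in TAC replicates 1, 2 and 3, against 38380 to 39360 CPM in control hearts. TAC replicate 2, in which Ppargc1a was highest, had the highest sum, and TAC replicate 3, in which Ppargc1a and Esrrg were lowest, had the lowest. The cardiomyocyte markers were highest and lowest in the same hearts, and their part was not tested. In TAC against control, 6 PPAR targets were lower and 2 higher at an unadjusted p under 0.05 by edgeR, beside 8.08% and 13.2% of genes, and 0 receptor and PGC-1 targets had such a p in either direction. DESeq2 called 2 PPAR targets lower and 2 higher and 0 of the other list, beside 2.87% lower and 5.68% higher. The limma-voom fit with quality weights called 22 PPAR targets lower and 2 higher, and 18 receptor and PGC-1 targets lower, beside 19.8% lower and 18.2% higher. In KO-TAC against TAC it called 1 PPAR target higher and 2 lower and 1 receptor and PGC-1 target higher, beside 3.3% higher and 1.93% lower, where DESeq2 called 1 PPAR target lower, beside 0.615%. In KO-TAC against control it called 3 PPAR targets lower, beside 2.8%, where DESeq2 called 1, beside 0.163%. Without TAC replicate 2 edgeR called 19 PPAR targets lower and 2 higher, and 10 receptor and PGC-1 targets lower, in TAC against control, beside 14% of genes lower and 13.5% higher.

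**Figure D5:**
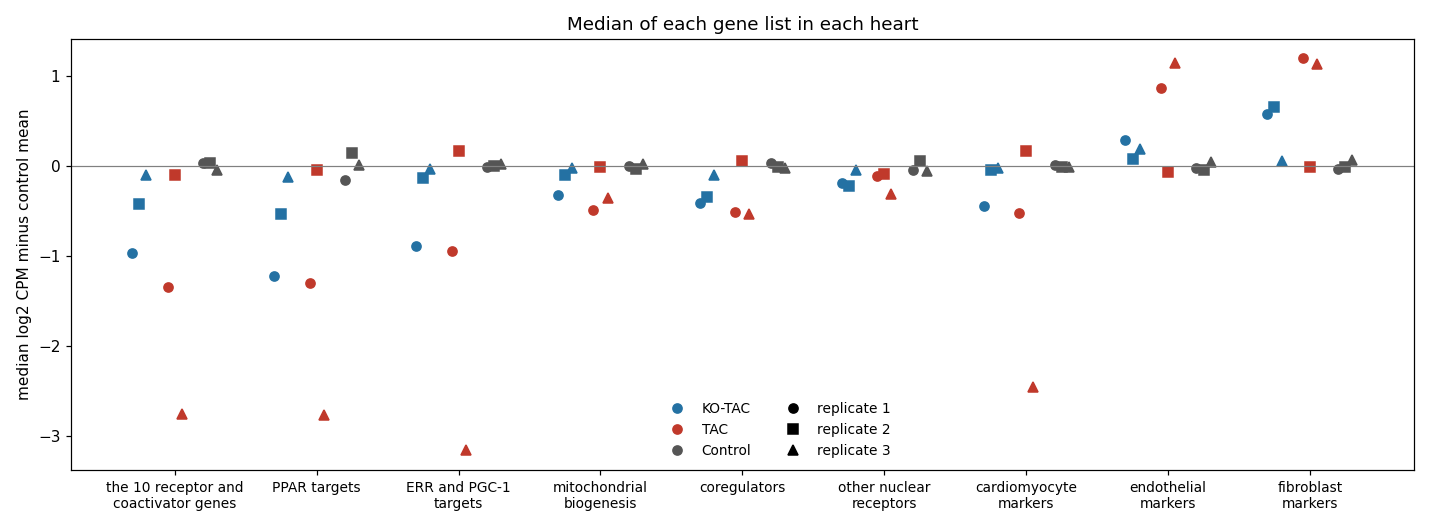
Median over each list of log2 CPM minus the control mean, in each heart, coloured by group with marker shapes for replicates 1 to 3. The 10 members, both target lists and the cardiomyocyte markers are lowest in TAC replicate 3, while the medians of the biogenesis factors run from -0.49 to -0.008 in TAC hearts.

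Of 15 factors of mitochondrial biogenesis 9 were fitted lower in TAC against control, beside 48.5% of genes, with a median of -0.067. With library size alone this median was 0.21, above 0, in a fit whose median over all genes was 0.29; under limma-voom it was -0.42, and it ran from -0.18 to -0.010 with 1 library left out. Nfe2l2, a regulator of antioxidant genes, was at 46.0 ± 7.41 CPM in KO-TAC, 73.0 ± 15.6 CPM in TAC and 50.9 ± 5.27 CPM in control hearts. Polg, the mitochondrial DNA polymerase, was at 63.7 ± 8.4, 69.7 ± 15.7 and 72.5 ± 2.91 CPM in KO-TAC, TAC and control hearts, and Yy1, a transcription factor that works with PGC-1 alpha, at 40.7 ± 3.39, 42.3 ± 3.42 and 44.3 ± 2.63 CPM. Of 26 coregulators 20 were fitted lower in TAC against control (beside 48.5% of genes; median -0.32) and 23 in KO-TAC against control (beside 46.2%; median -0.31, and -0.060 with library size alone). The TAC median of the coregulators was -0.52 without TAC replicate 2. Perm1, a muscle regulator induced by PGC-1 and estrogen-related receptors, was at 264 ± 73.9 CPM in KO-TAC, 185 ± 179 CPM in TAC and 292 ± 23.4 CPM in control hearts. Lpin1, which can act as a coactivator with PGC-1 alpha, was at 104 ± 59.2, 84.8 ± 96.1 and 169.6 ± 17.4 CPM in KO-TAC, TAC and control hearts, and Prkaa2, a catalytic subunit of AMP-activated kinase, at 83.8 ± 38.2, 48.9 ± 59.0 and 139 ± 16.9 CPM. By edgeR on all 9 libraries 0 genes of either list passed in any comparison. In TAC against control 3 biogenesis factors and 6 coregulators were lower at an unadjusted p under 0.05 (beside 8.08% of genes) and 1 of each list higher (13.2%). DESeq2 called 0 and 2 lower (2.87%) and 0 of either list higher (5.68%). The limma-voom fit called 8 and 16 lower (19.8%) and 0 and 1 higher (18.2%), and edgeR without TAC replicate 2 called 6 and 12 lower (14%) and 1 and 1 higher (13.5%).

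Of 30 other nuclear receptors 28 were tested and 0 passed by edgeR in any comparison; in TAC against control 5 were higher and 6 lower at an unadjusted p under 0.05, beside 13.2% and 8.08% of genes. DESeq2 called 3 higher and 4 lower (beside 5.68% and 2.87%), limma-voom 6 and 8 (18.2% and 19.8%), and edgeR 5 and 6 without TAC replicate 2 (13.5% and 14%). The medians of the 28 were 0.070 in KO-TAC against TAC, -0.19 in TAC against control and -0.063 in KO-TAC against control. The first was -0.062 without TAC replicate 2 and -0.063 under limma-voom, below 0 in both. With library size alone the TAC median was -0.002 and the KO-TAC median against control 0.16, beside all-gene medians of 0.29 and 0.28; the TAC median was -0.30 without TAC replicate 2. The clock receptor Nr1d2 was at 92.8 ± 48.5 CPM in KO-TAC, 126 ± 2.83 CPM in TAC and 133 ± 4.54 CPM in control hearts. The related Nr1d1 was at 73.0 ± 21.4, 95.1 ± 32.3 and 120.3 ± 17.99 CPM, and the glucocorticoid receptor Nr3c1 at 72.1 ± 12.1, 52.7 ± 7.07 and 80.7 ± 8.19 CPM, in KO-TAC, TAC and control hearts. Of 20 regulators upstream of Ppargc1a 18 were tested and 0 passed by edgeR in any comparison. In TAC against control 12 were fitted lower, beside 48.5% of genes (median -0.49, and -0.22 with library size alone), 6 were lower and 4 higher at an unadjusted p under 0.05, beside 8.08% and 13.2%. DESeq2 called 1 lower and 2 higher (beside 2.87% and 5.68%), limma-voom 9 and 3 (19.8% and 18.2%), and edgeR 7 and 3 without TAC replicate 2 (14% and 13.5%). Mef2a, a muscle transcription factor that acts on the Ppargc1a promoter, was at 119.8 ± 18.5 CPM in KO-TAC, 105 ± 23.3 CPM in TAC and 189.5 ± 4.14 CPM in control hearts (TAC minus control -0.86, SE 0.23; edgeR adjusted p = 0.136). Its relative Mef2d was at 131 ± 16.5, 126 ± 15.4 and 173 ± 15.2 CPM, and Camk2d, a calcium-activated kinase, at 117 ± 27.9, 86.0 ± 38.9 and 139 ± 16.7 CPM, in KO-TAC, TAC and control hearts.

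Genes with the most similar course over the 9 hearts were found by the root mean square difference of centred log2 CPM among 12456 genes, as a description in which hearts, libraries and cell makeup are shared. Ppargc1a was closest to Ppp1r3a (0.386), Dusp18 (0.398) and Atp2a2 (0.479), of which Atp2a2 encodes the calcium pump of the sarcoplasmic reticulum and is itself a cardiomyocyte marker used above. Ppargc1b was closest to Slf1 (0.180), Sobp (0.185) and Neo1 (0.220). Ppara was closest to Dglucy (0.306), Vwa8 (0.344) and Ryr2 (0.372), of which Ryr2, the calcium release channel, is also such a marker. Ppard was closest to Rnf40 (0.061), Csnk1d (0.071) and Eif4enif1 (0.073), and Pparg to Zfp623 (0.142), Caskin2 (0.186) and Zcchc8 (0.191). Esrra was closest to Tmem250-ps (0.069), Eef2 (0.074) and Vapb (0.075), Esrrb to Coq8a (0.105), Bzw2 (0.112) and Tmod1 (0.116), and Esrrg to Kcnj3 (0.275), Fgf13 (0.304) and Aldh1b1 (0.353), of which Kcnj3 encodes a potassium channel. Rxra was closest to Osbpl2 (0.056), Cpsf2 (0.067) and Scamp1 (0.069), and Rxrg to Mccc2 (0.107), Rai2 (0.111) and Bzw2 (0.117). Between members, Esrrb and Rxrg differed least (0.139), followed by Esrra and Rxra (0.186), and Pparg and Esrrg differed most (2.313).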

How the data were processed

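The authors deposited a table of raw counts per gene symbol for the 9 libraries, made from Trizol-extracted total RNA with a directional kit, per the labels' protocols. The submitters' processing notes name the builds GRCm38 and mm10 and the tools HISAT2 2.2.1, Trim Galore 0.6.10, StringTie 2.2.1, DESeq2 1.42.0 and SAMtools 1.15, with no roles. For the counting program, the annotation and the strand setting, nothing is given in the sources used here. Groups follow the sample titles.

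The counts were tested with edgeR 4.0.16 in R 4.3.3 (quasi-likelihood, two-sided, minimum count of 10 in filterByExpr, TMM scaling, group as the only term, all 9 libraries). The SE is the log2 difference divided by the root of F, and log2 CPM used a prior count of 2. The alternatives changed the scaling (RLE, upper quartile, library size), the tool (DESeq2 1.42.0; limma-voom in limma 3.58.1 with quality weights), the filter (none; 1 CPM in 3 libraries), the samples (the 2 groups compared; each library left out), the mitochondrial genes (removed) or the model (replicate number as a block). The tests were first run on simulated data with the same spread for every gene and no outlying heart. That run checked the code and cannot show how the tests behave with the spread between these hearts. Positions and lengths came from GENCODE M21.

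The members, lists and tests were chosen with earlier results of these data known. Genes named from a list were up to 3 that passed or else the 3 with the highest mean CPM, and likeness was searched among genes with a mean of at least 1 CPM, without predicted or RIKEN symbols. No label says that each library is a separate mouse, so the p-values cover only the spread between these libraries, which may be technical.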

Additional observations from a re-analysis of the deposited data

How the results depend on the processing

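The counts of members that passed edgeR (0 in each comparison) stayed at 0 under RLE, upper-quartile and library-size scaling, both other filters, the 2 groups alone, removal of mitochondrial genes and the replicate block. In TAC against control DESeq2 called 1 member and 1626 genes and limma-voom 8 members and 7230 genes; leaving out a library gave 0 to 8 members and 0 to 5477 genes, the highest without TAC replicate 2. In KO-TAC against TAC limma-voom called 3 members and 996 genes and DESeq2 195 genes; leaving out a library gave 0 members each time and 0 to 13 genes, the highest without TAC replicate 2. In KO-TAC against control limma-voom called 2 members and 991 genes, DESeq2 89 genes, the fit without a count filter 2 genes and the 2 groups alone 30 genes; leaving out a library gave 0 members each time and 0 to 4 genes, the highest without TAC replicate 3.

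Some log2 differences that had not passed changed sign. Under limma-voom these were Ppard (-0.27) and Ppargc1a (-1.97) in TAC minus control, Ppara (0.86), Ppard (0.12) and Ppargc1a (1.23) in KO-TAC minus TAC, and Esrra (0.016) in KO-TAC minus control. With the replicate block they were Ppard (-0.002) and Ppargc1a (-0.94) in TAC minus control. In KO-TAC minus TAC they were Ppara (0.25) and Ppargc1a (0.30). Deviations from the group mean correlated at -0.255 to 0.124 between same-numbered hearts and at -0.434 to 0.355 between different-numbered hearts. Deviations from a mean of 3 hearts depend on each other, so these values cannot decide whether replicate numbers pair the hearts. Library size alone moved the median of all genes to 0.29 in TAC minus control and 0.28 in KO-TAC minus control. The differences that changed sign with it were Ppard (0.038), Pparg (0.13) and Esrra (0.16) in KO-TAC minus control. Leaving out a library gave -0.13 to 0.16 for Ppard (sign changed without control replicate 1, TAC replicate 2 or TAC replicate 3) and -2.83 to 0.66 for Ppargc1a (TAC replicate 2) in TAC minus control, -0.78 to 1.66 for Ppara (TAC replicate 2 or KO-TAC replicate 1) and -1.33 to 2.16 for Ppargc1a (TAC replicate 2) in KO-TAC minus TAC, and -0.29 to 0.13 for Pparg (control replicate 3), -0.12 to 0.073 for Esrra and -0.48 to 0.011 for Rxrg (both KO-TAC replicate 1) in KO-TAC minus control. The cause was not tested. With 3 hearts a group and a biological coefficient of variation of 42.1%, the spread between TAC hearts limits these comparisons.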

Other observations

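Markers of other cells differed between the same hearts. Cardiac fibroblast markers summed to 1732 to 1926 CPM in KO-TAC, 1509 to 3013 CPM in TAC and 1395 to 1595 CPM in control hearts, with medians 1.197, -0.007 and 1.13 from the control mean in TAC replicates 1, 2 and 3. Tcf21, which drives the recombinase, had 4.09, 3.89 and 4.13 CPM in KO-TAC replicates 1, 2 and 3, 5.98, 6.07 and 6.89 CPM in TAC replicates 1, 2 and 3, and 4.9, 6.44 and 6.39 CPM in control replicates 1, 2 and 3; KO-TAC minus TAC was -0.64 (SE 0.20; edgeR adjusted p = 0.629). Smooth muscle and pericyte markers summed to 868 to 1216 CPM in KO-TAC, 644 to 1104 CPM in TAC and 1252 to 1290 CPM in control hearts. The adipocyte list, nearly all of it Lpl and Fabp4, which heart muscle and capillaries also express, summed to 4560 to 5404 CPM in KO-TAC, 2475 to 6282 CPM in TAC and 6212 to 6597 CPM in control hearts. Skeletal muscle markers, nearly all of the sum from Acta1 and Ckm, which the heart also expresses, summed to 2064 to 6361, 658 to 2807 and 1347 to 1573 CPM in KO-TAC, TAC and control hearts. Liver markers summed to 0.656 to 1.83, 0.845 to 1.61 and 0.142 to 1.78 CPM in KO-TAC, TAC and control hearts.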
